A study of Mus musculus with 66 samples.

Results

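Among 54 medial prefrontal cortex arrays from BXD mice, 14 were rich and 14 were poor in transcripts of the meninges. The arrays were ranked by the mean level of Ogn, Dcn, Col1a2 and Slc6a20a, each taken from its brightest probe set over all 66 arrays of the study and centred on the 54 BXD arrays. The first 14 arrays in rank are called rich and the last 14 poor, so these 28 arrays were chosen by measured values, and 26 BXD arrays lay between them. The remaining 12 arrays of the study came from the parental strains and had no part in the ranking.

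The tested groups were 27 BXD arrays after ethanol at 1.8 g/kg and 27 BXD arrays after saline, 1 of each from every strain. The parental arrays were 3 from C57BL6/J after ethanol, 3 from C57BL6/J after saline, 3 from DBA/2J after ethanol and 3 from DBA/2J after saline. BXD strains are recombinant inbred lines that descend from crosses of these parental strains. In every group the mice were males of 10 to 12 weeks, received the injection into the peritoneum, were restrained for 15 min, spent 10 min in a light-dark box and were killed 4 h after the injection. An array represents a pool of 4 to 5 mice, so it gives no spread between animals, and p-values below measure the spread between pools. The labels speak of randomly assigned processing batches, and the batch of each array was not used here. Values are log2 levels, and differences are log2 differences. Array medians overlapped between the classes, at 5.69 to 5.74 in rich arrays and 5.68 to 5.76 in poor arrays, and so did the spread of values within an array. Markers of excitatory cortical neurons averaged 10.51 to 10.73 in rich arrays and 10.47 to 10.84 in poor arrays, so the labelled tissue was present in both.

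The meninges are the membranes around the brain. Their inner layers, the pia and arachnoid, are built by fibroblasts that secrete collagens and small proteoglycans, carry transporters for metabolites and make retinoic acid, and similar fibroblasts follow the larger vessels into the cortex. Parenchymal neurons and glia make little of this matrix, so these transcripts are commonly used in cortical tissue as markers of the membranes and vessel sheaths. In RNA from bulk tissue, fewer cells of a type and less RNA per cell cannot be told apart.

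The genes of the ranking have different roles in these cells. Ogn encodes osteoglycin and Dcn decorin, both small leucine-rich proteoglycans of the collagen matrix. Col1a2 encodes a chain of type I collagen, and Slc6a20a encodes a sodium-coupled transporter of proline and related imino acids. The windows from 250 bases before to 50 bases after the gene start are shown because these genes chose the arrays, with matches to CCAAT and to TATAAA, read on both strands, in capitals. The sequences are RefSeq's for GRCm38.p6, and 3 of the 4 genes matched the promoter table. The Ogn window lies at chr13:49607765-49608064 on the plus strand, the Col1a2 window at chr6:4505368-4505667 on the plus strand and the Slc6a20a window at chr9:123678783-123679082 on the minus strand.
Ogn: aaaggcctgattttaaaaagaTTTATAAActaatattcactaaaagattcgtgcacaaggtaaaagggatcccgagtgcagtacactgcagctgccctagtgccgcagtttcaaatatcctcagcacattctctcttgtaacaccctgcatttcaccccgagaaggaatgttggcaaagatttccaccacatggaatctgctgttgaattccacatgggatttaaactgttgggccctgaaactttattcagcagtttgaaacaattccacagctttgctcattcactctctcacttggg
Col1a2: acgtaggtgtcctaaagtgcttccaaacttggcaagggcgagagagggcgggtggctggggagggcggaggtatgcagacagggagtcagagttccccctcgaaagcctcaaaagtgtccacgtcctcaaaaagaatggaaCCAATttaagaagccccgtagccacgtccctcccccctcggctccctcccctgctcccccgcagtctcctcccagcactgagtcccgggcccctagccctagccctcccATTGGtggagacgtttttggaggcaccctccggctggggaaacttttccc
Slc6a20a: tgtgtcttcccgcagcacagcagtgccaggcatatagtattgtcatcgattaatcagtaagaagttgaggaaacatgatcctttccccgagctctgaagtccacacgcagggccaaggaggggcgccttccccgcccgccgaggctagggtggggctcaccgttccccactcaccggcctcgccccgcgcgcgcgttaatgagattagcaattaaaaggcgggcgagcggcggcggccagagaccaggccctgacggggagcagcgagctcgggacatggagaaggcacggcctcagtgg

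Ogn held TATAAA on each strand, the matches overlapping and starting at positions -229 and -227 from the gene start. Col1a2 held CCAAT on the plus strand at position -109 and on the minus strand at position 1. Neither string occurred in the Slc6a20a window. CCAAT occurred in 37.4% of all 32851 mouse windows of this length and TATAAA in 13.6%. The windows of the genes that passed the test between rich and poor arrays, 37 windows in all, held CCAAT in 32.4% and TATAAA in 18.9%. A match describes letters and is no evidence of a working site.

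The score of an array, the mean of the 4 centred levels, was 0.12 to 0.40 in rich arrays (median 0.25) and -0.77 to -0.13 in poor arrays (median -0.21). There was no gap at either limit of the classes. The lowest rich array scored 0.124 and the next array outside it 0.115, and the highest poor array scored -0.126 against -0.107 for the nearest array outside. Only 3 arrays scored below -0.4, the ethanol and saline arrays of BXD22 and the ethanol array of BXD18.

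**Figure D1:**
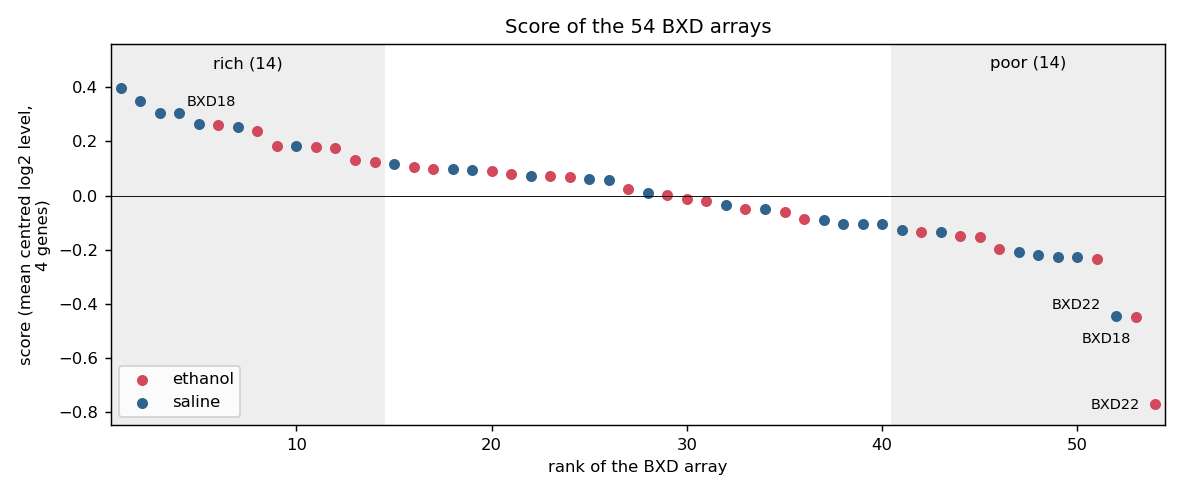
Score (mean centred log2 level of 4 genes) of each of the 54 BXD arrays by rank, coloured by treatment, with the 14 rich and 14 poor arrays shaded. Ethanol and saline arrays are mixed along the ranking, and 3 arrays of BXD22 and BXD18 lie below -0.4.

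Strain BXD22 stood apart from the others in 1 of the 4 genes. Its Col1a2 level was 6.26 after ethanol and 6.46 after saline, while the other 52 BXD arrays lay between 7.71 and 8.58 with a median of 8.04. A dimmer Col1a2 probe set read 4.38 after ethanol and 4.93 after saline in BXD22, also below the range of 5.20 to 6.11 in the others. Both BXD22 values were below the filter level of log2 5.105 used for the tests. The third and dimmest probe set, with a mean of 3.30, did not show the drop. It read 3.14 after ethanol and 3.11 after saline in BXD22, within the range of 3.08 to 3.62 in the others. The gap of 1.25 between BXD22 and the nearest other array had no equal among the 13196 genes in this direction, since the next widest gap, of Prg4, was 0.086. In Ogn, Dcn, Slc6a20a, Col1a1 and Col3a1, and in Casd1, Sgce and Ppp1r9a, which were looked up as neighbours of Col1a2, both BXD22 arrays lay within the range of the others. These genes were picked after the BXD22 values were seen. Both BXD22 arrays were in the poor class. In the saline array of BXD22 Ogn was 7.38, Dcn 7.82 and Slc6a20a 7.85, near the medians of the others (7.46, 7.90 and 7.98). With Col1a2 left out of the ranking, only 1 BXD22 array stayed in the poor class. Counts below are also given without this strain, an alternative added after seeing the data.

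The class differences of the ranking's own genes follow from how the arrays were chosen and are given as a description, with no test. Ogn was 7.35 to 7.90 in rich arrays (median 7.67) and 6.83 to 7.48 in poor arrays (median 7.23). Dcn was 7.81 to 8.52 in rich arrays (median 8.18) and 7.38 to 7.90 in poor arrays (median 7.63). In both proteoglycan genes the classes overlapped at their edges, with 11 rich arrays above every poor array for Ogn and 12 for Dcn. Col1a2 was 7.90 to 8.58 in rich arrays (median 8.21) and 6.26 to 8.02 in poor arrays (median 7.92). Slc6a20a was 7.94 to 8.53 in rich arrays (median 8.17) and 7.40 to 7.94 in poor arrays (median 7.68). Slc6a20a came nearest to separating the classes, with 13 of 14 rich arrays above every poor array. The difference of class means was 0.45 for Ogn, 0.53 for Dcn, 0.53 for Col1a2 and 0.50 for Slc6a20a. Of the dimmer probe sets of these genes that the ranking did not use, 1 for Ogn differed by 0.50, 2 for Col1a2 by 0.44 and 0.11, and 1 for Dcn by 0.029. The Col1a2 probe set at 0.11 and the Dcn probe set averaged 3.30 and 4.71 over 66 arrays, below the filter of log2 5.105.

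**Figure D2:**
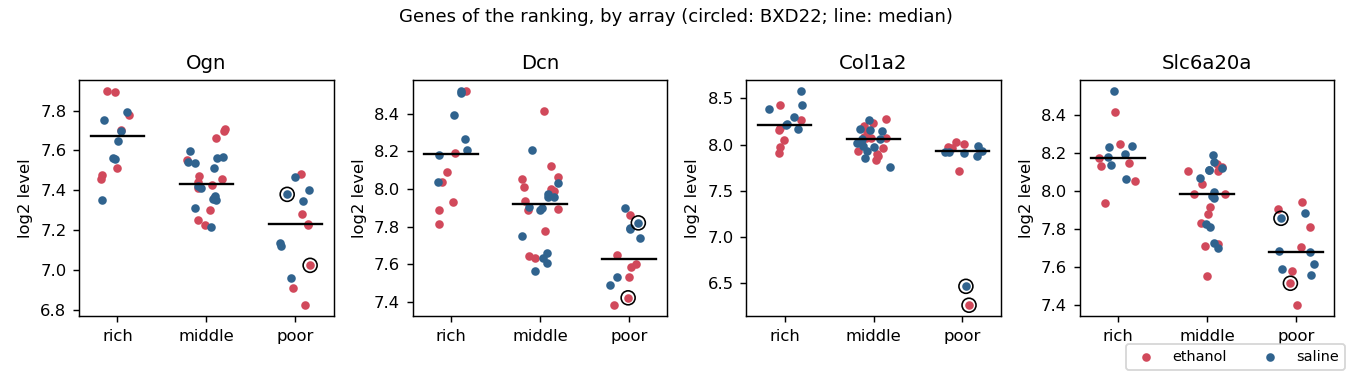
Log2 level of Ogn, Dcn, Col1a2 and Slc6a20a in each BXD array by class (14 rich, 26 middle, 14 poor), coloured by treatment, with a line at the median and BXD22 circled. Each gene steps down across the classes, and in Col1a2 the circled BXD22 arrays at 6.26 and 6.46 lie far below all others.

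The genes outside the ranking were compared between the 14 rich and the 14 poor arrays in 1 fit of 13192 genes, with treatment as a term and strain as a random block. Because the arrays were chosen by 4 genes of the same hybridisations, this fit asks which other genes varied together with them, and it is no independent evidence that the classes differ. In the rich arrays 32 genes were higher and 0 were lower at a limma adjusted p below 0.05, which is 0.243% of the genes tested. At an unadjusted p below 0.05 there were 383 higher and 296 lower genes, and the lowest adjusted p of a gene lower in rich arrays was 0.0593. The median difference over all genes was -0.0012, and that of the 32 genes was 0.32, with a range of 0.21 to 0.65. In all 32 genes the mean of the 26 middle arrays lay between the means of the rich and poor arrays. No gene had every rich array above every poor array (0% of 13196). Genes with every rich array below every poor array were not counted. Without BXD22, 17 of the 32 genes passed and no other gene did. The 15 calls lost (limma adjusted p 0.0616 to 0.098) were those of Aldh1a2, Bgn, Cyp1b1, Efemp1, Islr, Ptgds and Slc6a13, which are on meningeal lists, of Acta2, and of Anxa1, Bicc1, Cp, Crispld2, Emp3, Mgst1 and Tgfbr3. Without the ethanol array of BXD18, 19 passed, all among the 32, and 13 of the same 15 calls were lost (limma adjusted p 0.0511 to 0.0909), Cp and Mgst1 being kept.

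Of the 32 genes, 16 were on 1 of 4 lists of meningeal genes, 2 were on a list of vessel wall cells and 14 were on no list. The 4 meningeal lists held 72 genes, of which 54 outside the ranking were measured above the filter. Of these 54 genes, 16 rose in rich arrays, and 9 did so without BXD22 or without the ethanol array of BXD18. A positive difference was found in 47 of the 54, against 49.1% of all genes, and their median was 0.18, against -0.0012 over all genes. The lists were chosen with earlier results of these data known, so this contrast is a description.

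Matrix genes gave the largest single difference. Of 23 measured collagens and matrix proteins, 5 rose in rich arrays (3 without BXD22), 20 had a positive difference and the median was 0.15. Col3a1, which encodes type III collagen, was 5.88 to 7.59 in rich arrays (median 6.50) and 5.57 to 6.32 in poor arrays (median 5.93). The rich arrays spread widely in Col3a1, and 9 of them exceeded every poor array. The difference was 0.65 (SE 0.12), or 1.57-fold (limma adjusted p = 0.0061). Pcolce, an enhancer of procollagen cleavage, was 7.34 to 8.16 in rich arrays (median 7.79) and 6.83 to 7.72 in poor arrays (median 7.39), a difference of 0.42 (SE 0.073, limma adjusted p = 0.0036). Efemp1, the elastic fibre protein fibulin-3, was 6.52 to 7.63 in rich arrays (median 7.00) and 6.01 to 6.96 in poor arrays (median 6.60), a difference of 0.42 (SE 0.091, limma adjusted p = 0.032). The classes overlapped in both genes, and Efemp1 lost its call without BXD22 (limma adjusted p = 0.084). Of the small proteoglycans related to Ogn and Dcn, fibromodulin (Fmod) rose by 0.30 and biglycan (Bgn) by 0.26, while osteomodulin (Omd, 0.23, limma adjusted p = 0.063) and lumican (Lum, 0.23, limma adjusted p = 0.16) did not pass. Mgp, an inhibitor of calcification, had a difference of 0.35 with an SE of 0.14 and did not pass (limma adjusted p = 0.82). The other measured collagens of the list did not pass either. Col1a1 differed by 0.20 (SE 0.069, limma adjusted p = 0.62), Col5a2 by 0.09, Col6a2 by 0.07, Col5a1 by 0.05 and Col6a3 by 0.02. Col6a1 and Col12a1 each differed by -0.03.

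Transporters and enzymes of leptomeningeal cells held the largest share of calls among the lists in the main fit. Without BXD22 their share equalled that of secreted signals, at 3 of 13 measured members in each list. Of 13 measured members 7 rose (3 without BXD22), 12 had a positive difference and the median was 0.31. Serping1, the C1 inhibitor of the complement cascade, was 7.16 to 7.70 in rich arrays (median 7.47) and 6.63 to 7.27 in poor arrays (median 7.06). All 14 rich arrays lay above the poor median and 11 above every poor array. The difference was 0.43 (SE 0.061), or 1.35-fold, with an adjusted p of 0.00057 (limma), the smallest in the fit, which Serping1 shared with Apod, Igf2 and Ifitm2. Aldh1a2, a retinaldehyde dehydrogenase that makes retinoic acid, was 6.83 to 7.86 in rich arrays (median 7.22) and 6.36 to 7.26 in poor arrays (median 6.79), a difference of 0.44 (SE 0.092, limma adjusted p = 0.023). Cyp1b1, a cytochrome P450, rose by 0.39 (SE 0.085, limma adjusted p = 0.032). Aldh1a2 and Cyp1b1 did not pass without BXD22 (limma adjusted p = 0.077 and 0.090).

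Of the solute carriers on this list, 3 rose. Slc13a3, a dicarboxylate transporter, rose by 0.35 (SE 0.064), Slc6a13, the GABA transporter GAT2, by 0.33 (SE 0.068), and Slc13a4, a sulfate transporter, by 0.26 (SE 0.051). Ptgds, a prostaglandin D2 synthase made by arachnoid cells and also by oligodendrocytes, was 13.33 to 13.58 in rich arrays (median 13.43) and 13.06 to 13.41 in poor arrays (median 13.20). Its difference of 0.21 (SE 0.044, limma adjusted p = 0.021) was the smallest of the 32. The exporter Slc47a1 differed by 0.37 (SE 0.11, limma adjusted p = 0.39), the organic anion transporter Slc22a6 by 0.11 (SE 0.059, limma adjusted p = 0.999) and the connexin Gjb2 by 0.31 (SE 0.074, limma adjusted p = 0.074), and none of these passed.

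Secreted signals and binding proteins of the meninges were measured in 13 genes, of which 4 rose (3 without BXD22) and 12 had a positive difference, with a median of 0.16. Apod, the lipid carrier apolipoprotein D, was 10.02 to 10.77 in rich arrays (median 10.49) and 9.70 to 10.30 in poor arrays (median 10.07). All but 1 of the rich arrays exceeded every poor array. The difference was 0.42 (SE 0.063, limma adjusted p = 0.00057). Igf2, a growth factor made by meninges and vessels in adult brain, was 9.09 to 9.61 in rich arrays (median 9.35) and 8.70 to 9.28 in poor arrays (median 8.98), a difference of 0.38 (SE 0.057, limma adjusted p = 0.00057). Crabp2, a carrier of retinoic acid, rose by 0.35 and the secreted protein Islr by 0.26. Bmp6 and Bmp4, growth factors of the BMP family, differed by 0.23 and 0.17 and did not pass (limma adjusted p = 0.17 and 0.81).

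Transcription factors of the meninges were mostly below the filter, and none of the 5 measured passed, with 3 positive and 2 negative differences and a median of 0.14. Zic1 differed by 0.18 (SE 0.13), Foxc2 by 0.17 (SE 0.072) and Foxc1, whose loss in mice disturbs the meninges, by 0.14 (SE 0.058), while Prrx1 differed by -0.01 (SE 0.082) and Nr2f2 by -0.003 (SE 0.049).

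**Figure D3:**
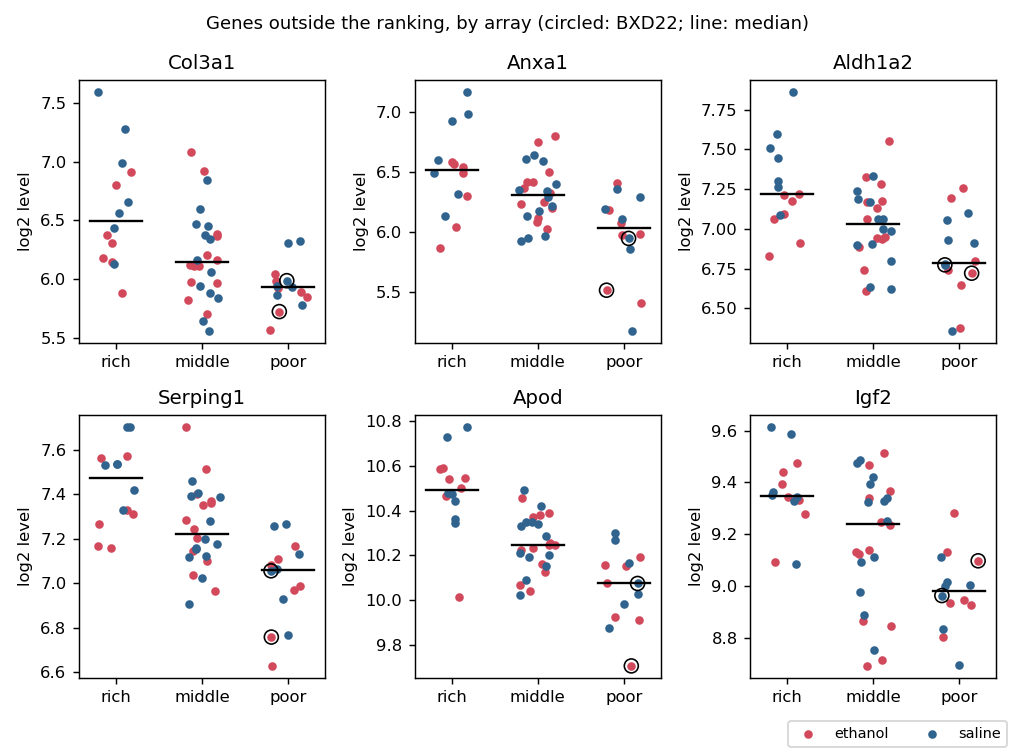
Log2 level of 6 genes that the ranking did not use, in each BXD array by class (14 rich, 26 middle, 14 poor), coloured by treatment, with a line at the median and BXD22 circled. The medians step down across the classes in every panel, and rich and poor arrays overlap in each. The 6 genes were picked for display after their values were seen.

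The 14 rising genes that no list held included Anxa1, annexin A1, a phospholipid-binding protein that limits inflammation. Anxa1 was 5.86 to 7.17 in rich arrays (median 6.52) and 5.18 to 6.41 in poor arrays (median 6.03). The difference was 0.56 (SE 0.12), or 1.47-fold (limma adjusted p = 0.032), and it did not pass without BXD22 (limma adjusted p = 0.098). Mgst1, a microsomal glutathione transferase, rose by 0.39, Cp, the copper-binding ferroxidase ceruloplasmin, by 0.35, and Tm4sf1, a membrane protein of the tetraspanin-like L6 family, by 0.32. Ifitm2, an interferon-induced membrane protein, was 7.52 to 7.95 in rich arrays (median 7.71) and 7.23 to 7.56 in poor arrays (median 7.39). Reck, an inhibitor of matrix metalloproteases, was 6.94 to 7.27 in rich arrays (median 7.08) and 6.56 to 6.95 in poor arrays (median 6.82). In Ifitm2 and in Reck 13 of 14 rich arrays lay above every poor array, although the differences were only 0.32 and 0.29. The others were Ranbp3l, Phldb2, Cald1, Itih2, Bicc1, Emp3, Crispld2 and Tgfbr3, with differences of 0.24 to 0.32.

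Markers of other cells at the brain surface and in vessels were counted in the same fit. Of 12 measured pericyte and smooth muscle markers, 2 rose (1 without BXD22) and all 12 had a positive difference, with a median of 0.11. The 2 were Acta2, the actin of smooth muscle, at 8.22 to 9.04 in rich arrays (median 8.35) and 7.96 to 8.28 in poor arrays (median 8.18), and Vtn, the adhesion protein vitronectin, at 8.90 to 9.11 in rich arrays (median 8.96) and 8.50 to 8.997 in poor arrays (median 8.73). Acta2 was near the threshold (difference 0.26, limma adjusted p = 0.0495). The mean level of the whole list was 7.00 to 7.19 in rich arrays (median 7.06) and 6.87 to 7.04 in poor arrays (median 6.93).

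None of 10 measured markers of border macrophages and antigen presentation passed, although 9 had a positive difference and the median was 0.19. H2-Aa, an MHC class II chain, differed by 0.28 (SE 0.12), lysozyme (Lyz2) by 0.27 (SE 0.080), F13a1 by 0.27 (SE 0.072) and the mannose receptor Mrc1 by 0.23 (SE 0.055, limma adjusted p = 0.090). The list averaged 5.73 to 6.23 in rich arrays (median 5.99) and 5.58 to 5.96 in poor arrays (median 5.85). Endothelial markers had a median difference of 0.063 over 17 genes, microglia markers of 0.031 over 15, astrocyte markers of 0.025 over 16 and blood cell markers of 0.0097 over 6, and none passed in any of these lists. Of 6 measured choroid plexus markers none passed, 3 were positive and 3 negative, and transthyretin (Ttr) differed by -0.19 (SE 0.15). The part of vessel wall cells and macrophages in the differences of the meningeal genes was not tested.

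Lists of neurons and oligodendrocytes showed no call. Deep cortical layer markers had the lowest median, -0.12 over 15 genes, with 13 negative, 5 of them at an unadjusted p below 0.05. Rprm differed by -0.34 (SE 0.11, limma adjusted p = 0.42) and Tle4, a corepressor of layer 6 neurons, by -0.20 (SE 0.058, limma adjusted p = 0.27). Upper layer markers had a median of 0.011 over 9 genes. Myelin markers had a median of -0.092, with 10 of 13 genes negative, and the myelin list averaged 7.57 to 8.43 in rich arrays (median 7.86) and 7.68 to 8.59 in poor arrays (median 7.99). Immediate early genes had a median of -0.093, and Arc, the most negative, differed by -0.50 (SE 0.20, limma adjusted p = 0.81).

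**Figure D4:**
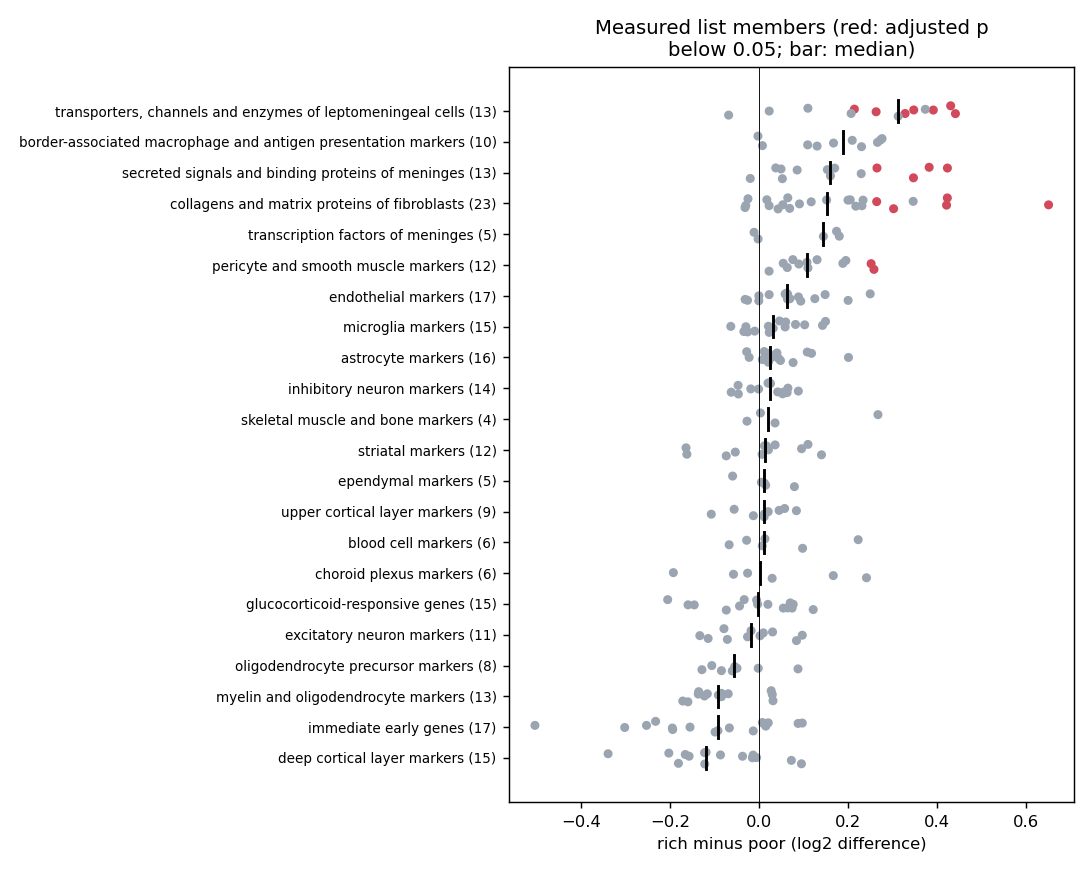
Rich minus poor log2 difference of each measured member of 22 gene lists (number measured in brackets), with red points for genes past the adjusted p threshold and a bar at the list median. Red points occur in the lists of meningeal transporters, signals and matrix proteins and among pericyte and smooth muscle markers, and the list medians run from 0.31 for leptomeningeal transporters to -0.12 for deep cortical layer markers.

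Treatment was evenly split between the classes. Of the 14 rich arrays, 7 were from ethanol and 7 from saline mice, and of the 14 poor arrays, 7 were from ethanol and 7 from saline mice. The difference in ethanol arrays between the classes was 0, which gives p = 1 in an exact two-sided permutation test that swapped treatments within strains. With 10, 18 or 27 arrays per class, with each gene of the ranking left out, with other scalings and without BXD22, that p was 0.432 to 1. The score averaged -0.018 ± 0.22 in ethanol arrays and 0.018 ± 0.21 in saline arrays (SD, n = 27 each), and 13 of 27 strains scored higher after ethanol. Within a strain the ethanol minus saline difference in score ran from -0.75 in BXD18 to 0.35 in BXD33, with a mean of -0.036 ± 0.23 (SD, n = 27).

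None of the single meningeal genes passed the test for an ethanol effect. Ethanol minus saline differences over the 27 strains were -0.01 (SE 0.051) for Ogn, -0.05 (SE 0.044) for Dcn, -0.04 (SE 0.034) for Col1a2 and -0.04 (SE 0.063) for Slc6a20a, and none passed (limma adjusted p 0.957 to 0.992). Without BXD22 the Ogn difference was 0.0031, of the opposite sign. Of the 54 measured genes on the meningeal lists, none passed, 1 had an unadjusted p below 0.05 and 46 had a negative difference, with a median of -0.033. Over all 13196 genes 62.4% of differences were negative and the median was -0.010, and 1 gene, the activity-regulated transcription factor Npas4, passed (0.00758%). The Npas4 difference was 0.84 without and 0.82 with the score held fixed. In a fit of rich and poor arrays with an interaction term, no gene passed for a difference between treatments in rich minus poor (0% called, limma), and 550 genes had an unadjusted p below 0.05. Within saline arrays alone 3 genes passed between 7 rich and 7 poor arrays, Pcolce among the 32, and within ethanol arrays alone 0 passed.

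The 2 pools of a strain often fell into different classes. Both arrays were rich in 4 strains (BXD09, BXD16, BXD27 and BXD39) and both were poor in 2 (BXD05 and BXD22). Of the BXD22 arrays, only 1 stayed poor when Col1a2 was left out of the ranking. In 3 strains, 1 array was rich and the other poor. In BXD18 the ethanol array was poor (score -0.45) and the saline array rich (0.30), while in BXD21 and BXD33 the ethanol arrays were rich (0.12 and 0.13) and the saline arrays poor (-0.21 and -0.22). A rich and a middle array were found in 3 strains, a poor and a middle array in 7, and 2 middle arrays in 8. BXD27 had nearly equal scores, 0.183391 after ethanol and 0.183383 after saline.

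**Figure D5:**
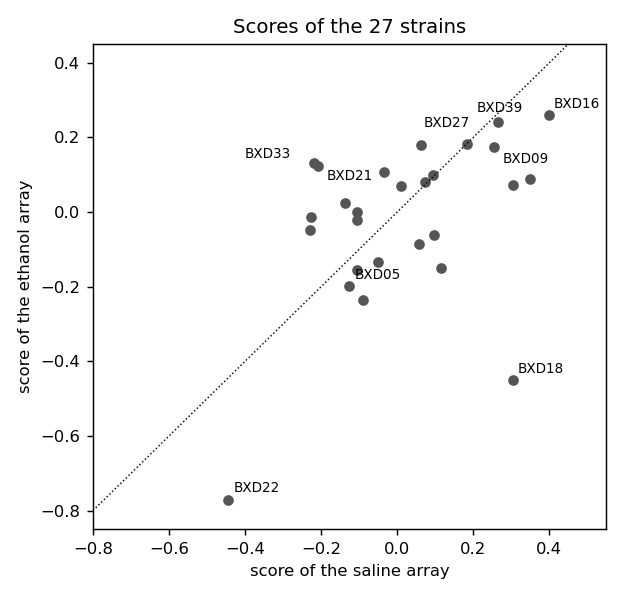
Score of the ethanol array against the score of the saline array for each of 27 BXD strains (log2 units, dotted line at equal scores), with names for strains whose arrays were both rich, both poor, or 1 of each. BXD16, BXD39, BXD27 and BXD09 lie at the upper right, BXD22 at the lower left, and BXD18 far below the line.

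The 4 genes of the ranking differed in how far the pools of a strain shared a level. The intraclass correlation, which is 1 where both arrays of every strain read the same and near 0 where strain makes no difference, was 0.88 for Col1a2, 0.62 for Dcn, 0.23 for Ogn and -0.10 for Slc6a20a. The strain effect, a moderated F over strains with treatment as a term, passed for Col1a2 (limma adjusted p = 1.06e-10) and Dcn (2.51e-04) and not for Ogn (0.140) or Slc6a20a (0.654). Without BXD22 the Col1a2 correlation was 0.49 (limma adjusted p = 0.0128) and that of Dcn 0.63. Of 54 measured meningeal genes 27 had a strain effect, against 20.4% of all 13196 genes, and their median intraclass correlation was 0.35, against 0.18 over all genes. Among the 32 rising genes 12 had a strain effect, with Col3a1 at 0.63, Igf2 at 0.51 and Apod at 0.47, while Ranbp3l (0.04), Phldb2 (-0.02) and Efemp1 (0.10) were little shared between pools.

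To hold strain fixed, each gene was regressed on the score with a term for every strain, over all 54 BXD arrays. The slope is the log2 change of a gene for 1 unit of score. This fit shares its arrays with the comparison of rich and poor, so the 2 are set side by side and not counted as separate evidence. In it 6 genes passed (0.0455%), of which 5 rose with the score (0.0379%) and 1 fell (0.00758%), and 1459 of 13192 had an unadjusted p below 0.05. Anxa1 had a slope of 1.41 (SE 0.19, limma adjusted p = 0.00035), Pcolce of 1.01 (SE 0.18, limma adjusted p = 0.021), Serping1 of 0.86 (SE 0.14, limma adjusted p = 0.0073), Acta2 of 0.74 (SE 0.14, limma adjusted p = 0.025) and Apod of 0.72 (SE 0.14, limma adjusted p = 0.030). Rap1gds1, a guanine nucleotide exchange factor for small GTPases, had a slope of -0.60 (SE 0.12, limma adjusted p = 0.030), and its rich minus poor difference was -0.10 (limma adjusted p = 0.999). These calls rested on few strains, since without BXD33 only Anxa1 passed, and without BXD18 2 genes passed, of which Anxa1 was 1 of the 6. Without BXD22, 4 genes passed, Apod and Rap1gds1 no longer among them.

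The strains with 1 rich and 1 poor array show this gene by gene. Anxa1 and Serping1 passed in the slope fit, which these strains entered, so the values are a description and no further evidence. Anxa1 was 5.40 in the ethanol array and 6.49 in the saline array of BXD18, the array with the lower score being lower. In BXD21 it was 5.86 after ethanol and 5.18 after saline, and in BXD33 6.56 after ethanol and 6.19 after saline, each time higher in the rich array. Serping1 was 6.63 after ethanol and 7.33 after saline in BXD18, 7.16 after ethanol and 6.93 after saline in BXD21, and 7.33 after ethanol and 6.77 after saline in BXD33. Its direction followed the class in all 3 strains. Col3a1 did so in BXD18 (5.93 after ethanol and 6.66 after saline) and in BXD21 (6.80 after ethanol and 6.31 after saline), but not in BXD33 (6.18 after ethanol and 6.32 after saline).

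The 12 parental arrays, which the ranking did not use, had scores over a narrower range, from -0.23 to 0.19. The scores were 0.04, 0.19 and 0.15 in C57BL6/J after ethanol and -0.23, 0.02 and 0.01 in C57BL6/J after saline. In DBA/2J they were -0.23, -0.09 and -0.07 after ethanol and -0.21, -0.01 and 0.13 after saline. The ethanol arrays of C57BL6/J all lay above its saline arrays, and in DBA/2J the treatments overlapped. The score was not tested between these groups. In each group the array of replicate 1 had the lowest score. The slopes below had no term for replicate number, so score and replicate number cannot be fully told apart in them.

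Slopes on the score within these 4 groups were fitted for the same 13192 genes, and none passed (0% called, limma). At an unadjusted p below 0.05 there were 756 genes, 5.73% of all, and the lowest adjusted p was 0.807. The median slope was 0.10 over all genes, 60.7% of which were positive. Of the 54 measured meningeal list genes 45 had a positive slope, with a median of 0.53. By list the median slope was 0.45 for matrix genes, 0.53 for transporters and enzymes, 0.51 for secreted signals, 0.60 for transcription factors and 0.21 for pericyte and smooth muscle markers, and border macrophage markers were at 0.011. Of the 32 genes that rose in rich BXD arrays, 29 had a positive slope in the parental arrays and 9 had an unadjusted p below 0.05 (28.1%).

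Pcolce had the smallest unadjusted p of the 32 in the parental arrays, with a slope of 1.23 (SE 0.35). Col3a1 had a slope of 1.39 (SE 0.49), Igf2 of 1.28 (SE 0.38), Slc13a3 of 1.29 (SE 0.45) and Mgst1 of 1.25 (SE 0.45), each more than 2 SE from 0. Anxa1, with the largest slope of the 6 genes called within BXD strains, had a parental slope of -0.11 (SE 0.56), and the slopes of Phldb2 (-0.18) and Itih2 (-0.01) were also negative. The 10 genes with the smallest p in the parental fit were Ostf1, Kcnk13, Irf8, Cdh5, Trim29, Cpq, Krt32, Mroh3, Il15ra and Eaf1. None of these 10 passed between rich and poor BXD arrays, where their differences were between -0.13 and 0.16.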

How the data were processed

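The authors deposited log2 levels from Affymetrix arrays, made with affy and RMA according to the labels (per the submitters' processing notes). The version of either tool is not given in the sources used here. Levels are relative, and no counting depth applies. The arrays had similar but not identical distributions of values, with medians of 5.69 to 5.74 in rich and 5.68 to 5.76 in poor arrays. For arrays their number limits the precision. Probe sets were named through the platform annotation (34945 of 45037 with 1 symbol), those with a mean below the 40th percentile (log2 5.105) were removed, and each gene kept its brightest probe set, which left 13196 genes. Two-sided tests were run with limma (version 3.58.1; lmFit, then eBayes) under R 4.3.3, reading files with the data.table package (version 1.17.8). P-values were Benjamini-Hochberg adjusted over all genes tested, with a threshold of 0.05, and the scripts were tested on simulated data. The comparison of rich and poor arrays had strain as a random block (consensus correlation 0.201). The highest correlation between 2 arrays was 0.997, and none was treated as a copy.

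The arrays, genes of the ranking and gene lists were chosen with earlier results of these data known. The text names the genes of the ranking, the 15 largest differences in each direction that passed, the 10 smallest p in the parental fit, genes called within strains or for ethanol, and up to 6 members per list by size; other called genes, and further members of the matrix and transporter lists, were added after their values were seen. BXD arrays of a strain are paired by strain. The parental replicate numbers were not used to pair the arrays. Deviations of same-numbered arrays from their group means had correlations of -0.393 to 0.262 (18 pairs). The score, however, was lowest in replicate 1 of every parental group. Alternatives were the filter, probe set choice, scaling, prior, array weights, array SD, strain block, class size, genes of the ranking, treatment subset and left-out arrays.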

Additional observations from a re-analysis of the deposited data

How the results depend on the processing

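The comparison of rich and poor arrays called 32 genes, and 26 to 44 under the other filters, scalings, class sizes and fits. The exceptions were 50 when Dcn was left out of the ranking, 17 without BXD22, 3 in saline arrays alone and 0 in ethanol arrays alone. The saline and ethanol fits each held 7 rich and 7 poor arrays, and the fit without BXD22 held 14 rich and 12 poor. Why these counts differed was not tested. Leaving out 1 array at a time gave 19 (without ethanol BXD18) to 38 genes. Genes lower in rich arrays, 0 in the main fit, numbered 1 or 2 under some alternatives. There were 2 with array weights and 2 when Col1a2 was left out of the ranking. Without the strain as a random block 31 genes passed, 29 of them among the 32. The genes called changed more under some alternatives. Of the 32, 20 passed after repeated quantile normalization, 19 with 10 or with 27 arrays per class and 19 without Slc6a20a in the ranking. The remaining filters, scalings, class sizes, rankings and fits kept 24 to 32 of them. Of single-gene results under these alternatives, 1271 kept their call, 291 lost it and 0 reversed. These counts include the 28 fits that differ from the main fit by only 1 array. The within-strain slope called 6 genes, 2 with all probe sets, 3 with array weights and 10 with array SD as a covariate. The cause of these shifts was not tested. Without the strain terms 64 genes passed, 4 of the 6 among them. That fit is no longer within strains, since it takes in differences between strains and treats the arrays of a strain as independent. Leaving out 1 strain at a time gave 1 (without BXD33) to 11 genes (without BXD32), with 2 without BXD18, 10 without BXD34 and 10 without BXD36. The parental slope called 0 genes under every alternative run, with the replicate block included and with each array left out (0 to 0). The ethanol effect called 1 gene, 2 after repeated quantile normalization and 4 with array SD as a covariate, and the Ogn ethanol difference reversed to 0.0031 without BXD22. The ethanol effect with the score held and the interaction gave 1 and 0 calls under each alternative run. Dim levels near the filter of 5.105 have no exact fold change.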

Other observations

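Some genes outside the meningeal lists also stood apart in BXD22, and they were picked after their values were seen. Prg4, a lubricating proteoglycan of connective tissue, was 5.41 after ethanol and 5.49 after saline in BXD22, against 5.58 to 7.15 (median 6.43) in the other 52 BXD arrays. Coch, a secreted matrix protein, was 7.81 after ethanol and 7.95 after saline in BXD22, against 8.00 to 8.58 in the others. Crispld2, 1 of the 32 genes that rose in rich arrays, was 6.05 after ethanol and 6.14 after saline in BXD22, against 6.18 to 6.75 in the others. In 13 of 13196 genes both BXD22 arrays lay below all others, and in 22 genes both lay above.

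Glucocorticoid-responsive genes, such as the clock gene Per1 and the phosphatase Dusp1, had a median rich minus poor difference of -0.0038 over 15 measured members, with 7 positive and none called by limma. Per1 differed by -0.21 (SE 0.063) and Dusp1 by -0.16 (SE 0.105). Striatal markers had a median difference of 0.014 over 12 measured members, with 8 positive, and Drd1, a dopamine receptor, differed by -0.16 (SE 0.060). Inhibitory neuron markers had a median of 0.024 over 14 measured members, with 9 positive. Of the other lists, oligodendrocyte precursor markers had a median of -0.058 over 8, excitatory neuron markers of -0.018 over 11, ependymal markers of 0.011 over 5 and skeletal muscle and bone markers of 0.019 over 4. None of their members passed.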
